A study of Mus musculus with 6 samples.

Results

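Translation initiation and elongation factors are the proteins that load ribosomes onto mRNA and move them along it. The 60 genes described here are the protein-coding rows of the deposited count table, among 49584 rows in all, whose GENCODE vM21 symbol begins with Eif1 to Eif6 or Eef1, or is Eef2. The 4 kinase genes Eif2ak1 to Eif2ak4 and the gene Eif2s1 were left out by that rule, which used no measured value. Levels of these transcripts were compared between Srp68 SKO and wild type mouse spermatocytes at the leptotene and zygotene stages, sorted by FACS from testes at postnatal day 12, with 3 Smart-seq2 libraries per genotype. SRP68, the protein of the mutated gene, is part of the signal recognition particle, which brings ribosomes making secreted or membrane proteins to the endoplasmic reticulum. The labels do not spell out SKO, and the sources used here give neither the deleted part of the gene nor any Cre driver or mouse strain. Separate animals are not named for the replicates, and the p-values therefore reflect only the spread between these libraries, which may be technical. In such bulk samples, fewer cells of a type and less RNA per cell cannot be told apart.

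Initiation starts when eIF2, bound to GTP, carries the initiator tRNA to the small ribosomal subunit together with eIF1, eIF1A, eIF3 and eIF5. The eIF4 factors recruit this complex to the mRNA cap, eIF5B joins the large subunit, and eIF2B recharges eIF2 with GTP, a step that is blocked when eIF2 is phosphorylated under stress. During elongation, eEF1A delivers aminoacyl-tRNAs, the eEF1B subunits recharge eEF1A, eEF2 moves the ribosome by a codon and eIF5A assists at difficult peptide bonds.

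The libraries held 11.9 to 15.4 M counts, and 3 counts corresponded to 0.174 to 0.289 CPM (counts scaled to library size, with TMM factors). Srp68 itself stood at 21.7, 29.3 and 22.6 CPM in wild type and 12.1, 6.52 and 6.93 CPM in SKO libraries (log2 fold change −1.52, SE 0.28, adjusted p = 0.00107). All 16 markers of meiotic prophase were detected, of which 12 were higher and 2, Spo11 (−0.36) and Ddx4 (−0.31), lower in SKO. The 16 summed to 19517 to 24045 CPM in wild type and 33757 to 43884 CPM in SKO libraries. Stra8 rose most, from a mean of 99.9 CPM in wild type to 486 CPM in SKO (log2 fold change 2.28, edgeR adjusted p = 2.66e-07). Somatic markers were low, although Sertoli markers summed to 40.8 to 179 CPM in SKO and 102 to 113 CPM in wild type libraries, erythroid markers to 2.77 to 148 CPM over the 6 libraries, and macrophage markers to 42.2 CPM in SKO replicate 3 against 1.80 to 2.77 CPM elsewhere. The only macrophage gene tested, Lyz2, was higher in SKO (3.35, edgeR adjusted p = 0.0454), with 25.2 CPM in SKO replicate 3 and overlapping groups. Endothelial markers summed to 9.67 to 12.9 CPM in wild type and 4.23 to 8.64 CPM in SKO libraries. Their only tested gene, Egfl7, was lower in SKO (−1.06, edgeR adjusted p = 0.0373). Markers of later stages (pachytene and spermatid) summed to 90.3 to 129 CPM in wild type and 30.7 to 33.4 CPM in SKO libraries; of the 4 tested, Ldhc (−2.13), Clgn (−1.68) and Piwil1 were lower and Tnp1, at 3.62 CPM or less, higher. Spermatogonial markers summed to 1003 to 1036 CPM in wild type and 1068 to 1112 CPM in SKO libraries, with Sohlh2 (−0.79) and Uchl1 (−0.86) lower and Stk31 (0.42) higher among 10 tested. Stk31 made up most of that sum, with means of 589 CPM in wild type and 788 CPM in SKO. The median log2 fold change of the 10 was −0.54. The Leydig genes Cyp11a1 and Cyp17a1 and the myoid gene Des had 0 counts in every library. Leydig and interstitial markers together summed to 4.06 to 15.6 CPM in wild type and 14.2 to 16.3 CPM in SKO libraries, with 0 of 3 tested called. Myoid markers summed to 1.27 to 2.36 CPM in wild type and 4.61 to 13.9 CPM in SKO libraries. The only one tested, Acta2, was higher in SKO (log2 fold change 2.25, edgeR adjusted p = 0.00763), with 12.3 CPM in SKO replicate 3. The part of these stages and cells in the values below was not tested.

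Of the 60 genes, 55 had enough counts to be tested, and 30 of them changed: 12 were higher and 18 lower in SKO. That is 21.8% higher and 32.7% lower, beside a background of 14.1% higher and 14.4% lower over all 13474 tested genes. Among the 8771 genes with at least 5 CPM in 3 libraries the background was 21.9% higher and 22.6% lower, and 25.9% of the 54 translation factors kept there were higher and 33.3% lower. The median log2 fold change of the 55 genes was −0.05, against −0.03 over all tested genes. Changes of at least 2-fold were called upwards for 1 gene, Eif2s2 (background 3.87%), and downwards for 4, Eif5a, Eif2b2, Eif2d and Eif2b4 (background 7.87%). Every SKO library lay above every wild type library for 17 genes (30.9%; background 21.6%) and below for 20 (36.4%; background 22.2%). The split depended on scaling: with library totals in place of TMM, which moved the median of all tested genes from −0.03 to −0.29, 5 were higher and 27 lower. Once the trend of each library over transcript GC content and length had been taken out (the GC and length correction below), 14 were higher and 12 lower. Of the 30 calls, 11 held in all 17 alternatives that kept the threshold: Eif2s2, Eif3c, Eif1ax and Eef1b2 were higher, and Eif5a, Eif2b2, Eif2d, Eif3l, Eif1, Eif2b1 and Eif4a1 lower.

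**Figure D1:**
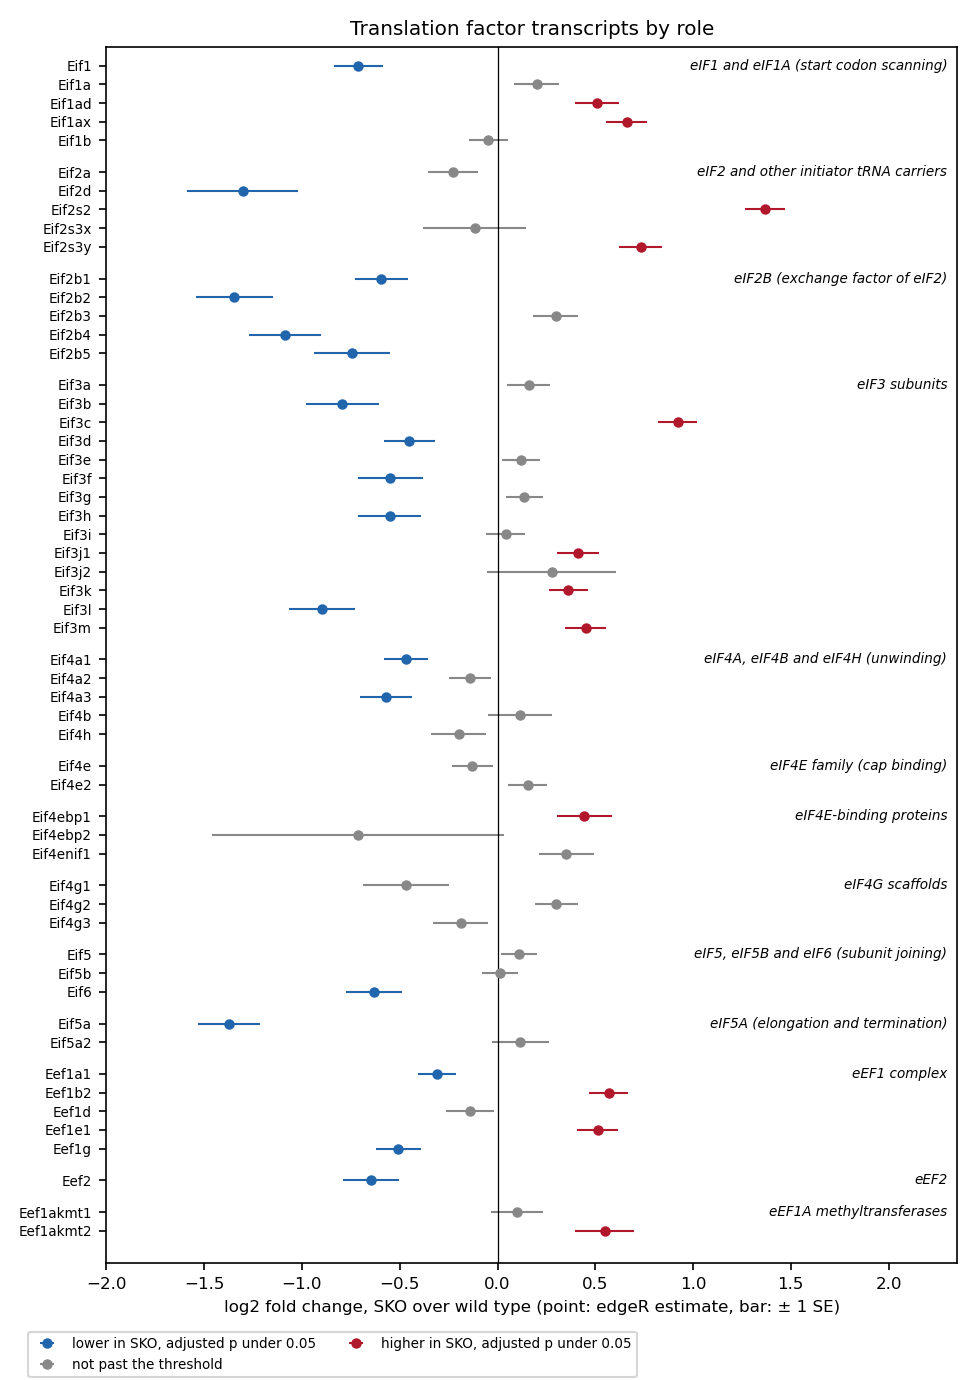
Log2 fold change (SKO over wild type) of each of the 55 tested translation factor genes, grouped by role, with bars of ± 1 SE from edgeR and colours for the call. The largest increase was that of Eif2s2 (1.37) and the largest decreases those of Eif5a (−1.37) and Eif2b2 (−1.35).

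The promoters of 4 of those 11 genes, the 2 steepest in each direction with a single annotated start, are printed so that their sequence can be read beside their values. RefSeq on GRCm38.p6 gave promoters for 44 of the 60 genes. Each run is the 250 bases before that start, 5′ to 3′ on the gene's strand, with capitals marking the ETS motif CCGGAAG on either strand. The stretches are chr2:154892907-154893156 (minus strand), chr7:126566367-126566616 (minus strand), chr12:85219231-85219480 (plus strand) and chr1:131152957-131153206 (plus strand).
Eif2s2: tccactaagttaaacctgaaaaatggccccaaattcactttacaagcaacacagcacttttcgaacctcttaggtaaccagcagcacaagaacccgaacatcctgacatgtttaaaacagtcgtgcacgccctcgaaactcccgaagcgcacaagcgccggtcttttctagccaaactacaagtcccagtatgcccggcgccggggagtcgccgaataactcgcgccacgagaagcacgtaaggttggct
Eif3c: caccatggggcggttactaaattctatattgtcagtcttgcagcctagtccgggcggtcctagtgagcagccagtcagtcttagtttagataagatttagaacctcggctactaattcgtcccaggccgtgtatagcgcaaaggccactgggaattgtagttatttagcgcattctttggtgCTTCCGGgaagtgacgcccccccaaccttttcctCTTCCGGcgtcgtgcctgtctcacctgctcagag
Eif2b2: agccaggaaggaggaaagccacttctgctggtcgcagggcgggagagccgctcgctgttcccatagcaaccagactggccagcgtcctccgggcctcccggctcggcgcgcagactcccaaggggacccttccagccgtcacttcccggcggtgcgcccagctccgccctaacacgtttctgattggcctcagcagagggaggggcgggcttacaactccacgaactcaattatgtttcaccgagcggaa
Eif2d: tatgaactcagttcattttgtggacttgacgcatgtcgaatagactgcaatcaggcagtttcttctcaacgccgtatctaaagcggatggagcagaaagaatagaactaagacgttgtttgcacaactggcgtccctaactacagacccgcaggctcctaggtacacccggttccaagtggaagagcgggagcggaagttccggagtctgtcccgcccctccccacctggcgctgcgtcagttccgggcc
Motifs were counted in a 300 base window, the 250 bases before the start and the 50 after it. The ETS motif occurred in this window for 16 of the 44 genes (36.4%) and for 9.93% of all genes in the promoter table. It occurred in 5 of 11 higher and 5 of 15 lower translation factors. Eif2b2 is among them by a match beyond its printed stretch. The E-box CACGTG, a motif bound by Myc and related factors, occurred in 11 of 44 (25%) and in 8.09% of all genes, with 1 of the 11 higher and 4 of the 15 lower translation factors among them. The C/EBP-ATF response element TGATGNAAN, the composite site of ATF4, was found in this window for 1 of 44 genes (2.27%; 4.5% of all genes), Eif2s3x, and in 0 of the higher or lower ones. These matches on both strands are descriptions of the windows. The shares of all genes cover the 27025 genes of the promoter table, which were not limited to genes tested here. Shares among the tested genes were not counted.

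Of the eIF2 subunit genes measured here, Eif2s2 and Eif2s3y rose and Eif2s3x did not pass; Eif2s3y lost its call with the GC and length correction. Eif2s2 (ENSMUSG00000074656; GRCm38 chromosome 2, 154871410 to 154892935, minus strand), which encodes the beta subunit of eIF2, stood at 1333, 1221 and 1426 CPM in wild type replicates 1 to 3 and at 3083, 3383 and 3806 CPM in SKO replicates 1 to 3. Every SKO library was thus far above every wild type library. The fold was 2.58, with a log2 fold change of 1.37 (SE 0.0998; edgeR adjusted p = 1.06e-06). Among all genes in the table its mean CPM ranked 46 in wild type and 19 in SKO, and its share of all counts on the 60 genes went from 7.98 to 9.27% in wild type to 17.6 to 21.0% in SKO libraries. Eif2s3y, the Y-linked gene for the gamma subunit, which is required in the male germ line, was at 505, 429 and 566 CPM in wild type and 772, 845 and 873 CPM in SKO (log2 fold change 0.73, SE 0.11; adjusted p = 0.000233). Its X-linked counterpart Eif2s3x was far less abundant, at 11.7, 14.9 and 11.9 CPM and 14.1, 11.8 and 9.62 CPM, with overlapping groups (log2 fold change −0.12, 95% interval −0.68 to 0.45; adjusted p = 0.787). The 2 remaining genes of this class encode eIF2-independent carriers of initiator tRNA. Eif2d fell from 18.5, 12.5 and 14 to 6.75, 5.68 and 5.77 CPM (log2 fold change −1.30, SE 0.283; adjusted p = 0.00334), and Eif2a stood at 152 ± 16.9 and 130 ± 15.3 CPM (mean ± SD, n = 3 per genotype here and below; adjusted p = 0.205); with the GC and length correction Eif2a was called at −0.54 (adjusted p = 0.00568). Eif2s3y stood at 0.06 with the GC and length correction and was no longer called (adjusted p = 0.681), whereas Eif2s2 stood at 1.03.

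Of the 5 subunit genes of eIF2B, which recharges eIF2, 4 fell and 0 were called higher (80% lower, beside a background of 14.4% over all tested genes and 22.6% among genes with at least 5 CPM). Their median log2 fold change was −0.74. The alpha, beta and delta subunits form the regulatory part that senses eIF2 phosphorylation, and the gamma and epsilon subunits the catalytic part. Eif2b2 (beta; ENSMUSG00000004788, chromosome 12, 85219481 to 85226628, plus strand) went from 59.7, 52.5 and 49.9 CPM in wild type to 27.2, 18.3 and 18.1 CPM in SKO, a level 39.3% of wild type (log2 fold change −1.35, SE 0.195; adjusted p = 0.000173). Eif2b4 (delta) went from 52.6, 56.2 and 39.8 to 23.9, 20.8 and 25.3 CPM (log2 fold change −1.09; adjusted p = 0.000581). Eif2b1 (alpha) fell from 226, 172 and 192 to 150, 127 and 114 CPM (−0.59; 0.00454), and Eif2b5, the catalytic epsilon subunit, from 30.6, 43.7 and 41.6 to 25.3, 21.8 and 22.1 CPM (−0.74; 0.0102). In each of these 4 genes every SKO library lay below every wild type library. Eif2b3 (gamma) differed from them: its SKO libraries (336 ± 14.8 CPM) all lay above its wild type libraries (273 ± 42.1 CPM), with a log2 fold change of 0.30 that missed the threshold (95% interval 0.05 to 0.55; adjusted p = 0.0745). Eif2b3 was called higher in 4 of the 17 alternatives (adjusted p 0.0268 to 0.861 over all of them), DESeq2 among them (0.0374). After the GC and length correction Eif2b4 stood at −0.32 (adjusted p = 0.239) and Eif2b5 at −0.34 (0.224), so that 2 of the 5 were called there, Eif2b1 at −0.47 (0.0127) and Eif2b2 at −0.76 (0.00393). Without wild type replicate 2, Eif2b5 stood at −0.65 (adjusted p = 0.0509).

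**Figure D2:**
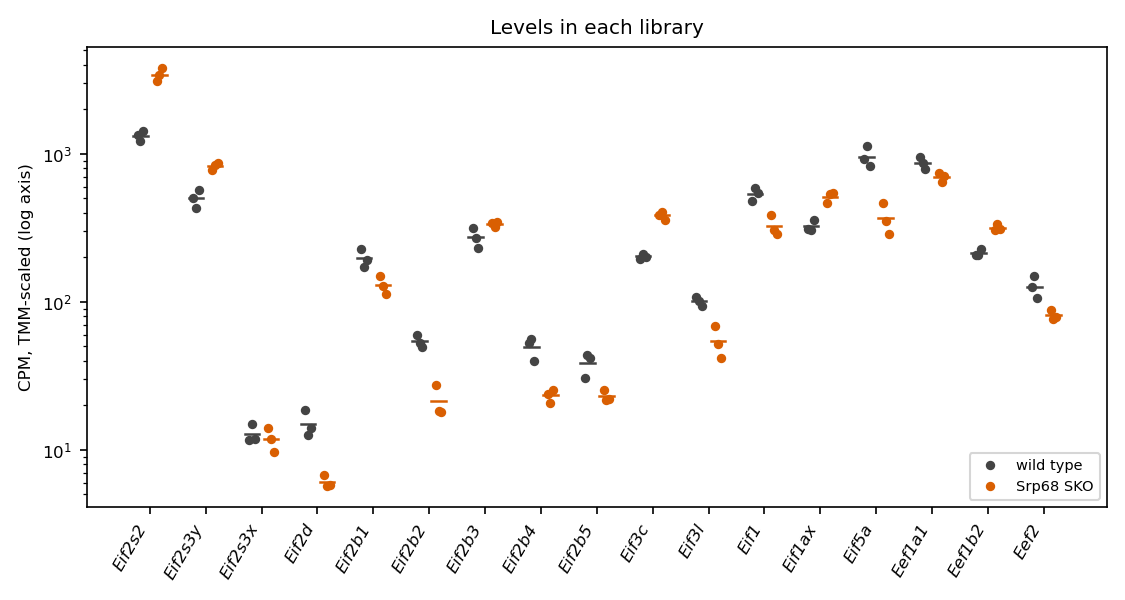
CPM (TMM-scaled, log axis) of 17 translation factor genes in each of the 3 wild type and 3 SKO libraries, with a line at each mean. Eif2s2 lies at 1221 to 1426 CPM in wild type and 3083 to 3806 CPM in SKO, and the 3 SKO points of Eif5a, Eif2b2 and Eif2d lie below their wild type points.

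Among the scanning factors, Eif1 fell and the X-linked Eif1ax rose. Eif1, whose protein keeps the scanning complex open until a start codon is met, went from 480, 589 and 540 CPM in wild type to 388, 305 and 289 CPM in SKO (log2 fold change −0.71, SE 0.124; adjusted p = 0.000681). Its paralog Eif1b stood at 487 ± 26.7 and 472 ± 40.7 CPM (log2 fold change −0.05, 95% interval −0.26 to 0.17). The log2 ratio of Eif1 to Eif1b counts within a library was 0.06, 0.19 and 0.15 in wild type and −0.42, −0.58 and −0.61 in SKO. Eif1ax, the gene for eIF1A, rose from 311, 306 and 357 to 465, 532 and 543 CPM (log2 fold change 0.66, SE 0.105; adjusted p = 0.000348), and stood at 0.36 with the GC and length correction (0.00699). The autosomal copy Eif1a stood at 161 ± 13.3 and 185 ± 18.9 CPM (adjusted p = 0.225). Eif1ad, which encodes a protein with an eIF1A-like domain, rose from 115, 112 and 113 to 177, 147 and 160 CPM (0.51; 0.00397); with library totals it stood at 0.25 and was not called (adjusted p = 0.132), and with the GC and length correction at 0.91 (3.3e-05). Part of the exons of Eif1ad (15.3%) overlaps Banf1 on the opposite strand, and the reads there cannot be told apart. Exons of Eif5b (16.8%), Eif4a2 (13.3%) and Eif1b (12.7%) also overlap other genes in part, with the same limit.

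The genes of eIF3, the largest initiation factor and the platform on the small ribosomal subunit, were called in both directions. Of its 14 genes, 4 were higher, 5 lower and 5 did not pass (median log2 fold change 0.13). That is 28.6% higher and 35.7% lower, beside a background of 21.9% and 22.6% among genes with at least 5 CPM. Genes at such levels thus also had calls in both directions. Eif3c (ENSMUSG00000030738; chromosome 7, 126546455 to 126566411, minus strand), a core scaffold subunit, stood at 196, 212 and 200 CPM in wild type and 386, 407 and 358 CPM in SKO (log2 fold change 0.92, SE 0.1; adjusted p = 1.93e-05). Eif3l, another core subunit, went the opposite way, from 108, 101 and 93.4 to 69.0, 52.2 and 41.5 CPM (−0.90, SE 0.17; adjusted p = 0.00131). Both genes had separate groups. Eif3b, which with Eif3g and Eif3i makes the peripheral module, fell from 73.2, 88.7 and 56.4 to 50.2, 36.4 and 39.4 CPM (−0.79; 0.00542), and Eif3m rose from 577, 485 and 584 to 685, 757 and 809 CPM (0.45; 0.00515). Smaller decreases were called for Eif3h (−0.55; adjusted p = 0.0199), Eif3f (−0.55; 0.0241) and the cap-binding subunit gene Eif3d (−0.45; 0.0189). Smaller increases were called for Eif3k (0.36; adjusted p = 0.0147) and the loosely bound subunit gene Eif3j1 (0.41; 0.0102). Eif3j1 shares near-identical sequence with Eif3j2, and 20.2% of its exon length overlaps other genes; Eif3d overlaps Gm17638 over 43.3%, so both are uncertain. The 5 that did not pass were Eif3a, Eif3e, Eif3g, Eif3i and Eif3j2, between 0.04 and 0.28.

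Calls on eIF3 subunits varied with the processing more than those on Eif3c and Eif3l, which held throughout. With the GC and length correction Eif3b (−0.20; adjusted p = 0.391), Eif3d (−0.06; 0.784), Eif3f (−0.34; 0.134) and Eif3m (0.18; 0.141) were not called, while Eif3g (0.85; 1.63e-05), Eif3i (0.37; 0.019) and Eif3e (−0.47; 0.00287) were. Eif3k stood at 0.89 there (1.26e-05). With library totals Eif3j1 (0.15; 0.301), Eif3k (0.10; 0.498) and Eif3m (0.19; 0.115) were not called. Leaving out a library ended the call of Eif3f for 5 of the 6 libraries, all but wild type replicate 3 (adjusted p 0.0513 to 0.123). The call of Eif3d ended without wild type replicate 1 (0.0705) or 2 (0.0601) or SKO replicate 2 (0.0661) or 3 (0.0897). That of Eif3h ended without wild type replicate 2 (0.107) or SKO replicate 2 (0.108) or 3 (0.0939), that of Eif3j1 without SKO replicate 3 (0.0506), and that of Eif3k without SKO replicate 1 (0.0601).

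In the cap-binding and unwinding machinery, the helicase genes Eif4a1 and Eif4a3 fell and Eif4ebp1 rose. Eif4a1, the RNA helicase of the eIF4F complex, went from 303, 269 and 314 to 239, 211 and 191 CPM (log2 fold change −0.47, SE 0.113; adjusted p = 0.00682). Eif4a3, the related helicase of the exon junction complex, went from 298, 354 and 275 to 243, 202 and 179 CPM (−0.57; 0.00489); with the GC and length correction it stood at −0.20 (0.173). Eif4a2 stood at 311 ± 17.2 and 282 ± 29.2 CPM, with overlapping groups (adjusted p = 0.367; called with the same correction, at −0.42, 0.00353). The helicase cofactor genes Eif4b (52.6 ± 9.61 and 57.0 ± 4.80 CPM) and Eif4h (61.9 ± 4.96 and 53.9 ± 3.32 CPM) did not pass either.

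The cap-binding protein gene Eif4e was at 584, 490 and 565 CPM in wild type and 461, 504 and 534 CPM in SKO, with overlapping groups (log2 fold change −0.13, 95% interval −0.35 to 0.09; called at −0.39, adjusted p = 0.00382, with library totals, and at −0.33, 0.0169, with the GC and length correction). Eif4e2, whose protein binds the cap without recruiting eIF4G, stood at 292 ± 24.0 and 325 ± 1.32 CPM (0.16; adjusted p = 0.278; called at 0.29, 0.0389, with the GC and length correction). Eif4ebp1, which encodes the inhibitor that holds eIF4E away from eIF4G when mTORC1 is inactive, rose from 110, 100 and 86.1 to 147, 144 and 112 CPM (0.44; adjusted p = 0.0285). That call did not hold with library totals (0.19; 0.391) or without wild type replicate 2 (0.0662) or 3 (0.0929) or SKO replicate 1 (0.107) or 2 (0.134). Its paralog Eif4ebp2 was at 2.13, 2.55 and 1.31 CPM in wild type and 1.48, 1.77 and 0.385 CPM in SKO, a level too low for a narrow estimate (95% interval of the log2 fold change −2.31 to 0.89). Eif4enif1, which encodes the eIF4E transporter, had SKO libraries all above its wild type libraries (76.4 ± 5.03 against 59.9 ± 7.21 CPM) without a call (adjusted p = 0.0775). Eif4enif1 was called higher with the GC and length correction (0.48; 0.0133) and with DESeq2 (0.37; 0.0447).

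In the main edgeR fit (TMM scaling), none of the 3 scaffold genes of the eIF4G family passed the adjusted p threshold of 0.05. Eif4g1, the main scaffold in many tissues, was the scarcest of the 3 here, at 19.7, 28.4 and 21.6 CPM in wild type and 17.7, 15.3 and 17.4 CPM in SKO (log2 fold change −0.47; adjusted p = 0.132). Eif4g2, whose protein lacks the eIF4E-binding site and supports cap-independent initiation, was at 413, 508 and 511 CPM in wild type and 548, 575 and 641 CPM in SKO (0.30, 95% interval 0.07 to 0.54; adjusted p = 0.0533). Its groups did not overlap, and it was called in 9 of the 17 alternatives (adjusted p 0.0226 to 0.92 over all of them). Eif4g3 stood at 80.3 ± 7.71 and 70.5 ± 8.94 CPM (adjusted p = 0.36). With library totals Eif4g1 (−0.73; 0.0275) and Eif4g3 (−0.45; 0.0286) were called lower.

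Among factors of subunit joining, Eif5 and Eif5b did not pass and Eif6 fell. Eif5, the gene for the GTPase-activating protein of eIF2, was at 1011, 977 and 938 CPM in wild type and 989, 1018 and 1153 CPM in SKO (log2 fold change 0.11, 95% interval −0.09 to 0.31). Eif5b, the gene for the GTPase of subunit joining, was at 511 ± 21.8 and 515 ± 20.9 CPM (0.01, 95% interval −0.19 to 0.21). Eif6, whose protein keeps free large subunits from joining too early, went from 171, 172 and 143 to 125, 102 and 86.8 CPM (−0.63; adjusted p = 0.00425). Eif6 stood at 0.02 with the GC and length correction (adjusted p = 0.902). With library totals Eif5 stood at −0.16 (adjusted p = 0.151) and Eif5b at −0.25 (0.0464).

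Eif5a had the largest decrease of the 55 tested genes. Eif5a (ENSMUSG00000078812; chromosome 11, 69916714 to 69921958, minus strand) encodes the hypusine-bearing factor that relieves stalled ribosomes. Its wild type libraries stood at 916, 1125 and 822 CPM and its SKO libraries at 464, 353 and 286 CPM, well below them. The SKO mean was 38.6% of wild type (log2 fold change −1.37, SE 0.159; adjusted p = 3.12e-05), and its rank by CPM among all genes went from 88 to 601. The paralog Eif5a2 stood at 51.8, 65.1 and 66.8 CPM in wild type and 70.6, 61.8 and 66.7 CPM in SKO, with overlapping groups (0.12, 95% interval −0.20 to 0.43). Eif5a remained 2.44 ± 0.31 log2 units above Eif5a2 in SKO libraries, beside 3.96 ± 0.29 in wild type. Of the enzymes that make hypusine, Dohh fell from 31.0 ± 3.74 to 14.7 ± 3.44 CPM (−1.07; adjusted p = 0.00245), while Dhps stood at 109 ± 7.41 and 108 ± 9.09 CPM (−0.01; adjusted p = 0.946). Eif5a stood at −0.88 with the GC and length correction.

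Genes of the elongation complex eEF1 moved in both directions, and Eef2 fell. Eef1a1, which encodes the carrier of aminoacyl-tRNA, went from 948, 872 and 791 to 743, 650 and 713 CPM (log2 fold change −0.31, SE 0.099; adjusted p = 0.0306). Eef1b2, the gene for the exchange subunit eEF1B-alpha, rose from 206, 208 and 226 to 306, 333 and 310 CPM (0.57, SE 0.0994; adjusted p = 0.000709). Eef1g, the gene for the gamma subunit of the same complex, fell from 208, 191 and 187 to 153, 136 and 124 CPM (−0.51; 0.00443), and Eef1d stood at 212 ± 16.3 and 192 ± 27.6 CPM (adjusted p = 0.43). Eef1e1, whose protein belongs to the multi-synthetase complex, rose from 242, 246 and 278 to 336, 377 and 380 CPM (0.51; 0.00206). Eef2, the gene for the translocase, fell from 125, 150 and 106 to 87.7, 76.7 and 78.7 CPM (−0.65, SE 0.142; adjusted p = 0.00353). Groups were separate in each of the 5 called genes. With the GC and length correction Eef2 stood at 0.07 (adjusted p = 0.707), Eef1g at −0.17 (0.266) and Eef1a1 at −0.24 (0.0699), while Eef1b2 stood at 0.69 (0.000124). The call of Eef1a1 also ended with upper-quartile scaling (adjusted p = 0.0583) or when wild type replicate 1 (0.134) or 2 (0.0789) or SKO replicate 2 (0.147) or 3 (0.061) was left out, and that of Eef1e1 with library totals (0.25; 0.0532).

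Of the genes for lysine methyltransferases of eEF1A, Eef1akmt2 rose from 264, 216 and 308 to 315, 373 and 465 CPM (0.55; adjusted p = 0.0136), and Eef1akmt1 stood at 74.0 ± 8.35 and 79.4 ± 2.90 CPM. The lowest SKO value of Eef1akmt2 was just above its highest wild type value. Its call ended with library totals (0.28; 0.12) and without wild type replicate 1 (0.0514) or 2 (0.0706) or SKO replicate 3 (0.0806).

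The remaining 5 genes had too few counts to be tested. Eef1a2, the eEF1A form of muscle and nerve, had 4 counts in wild type replicate 3 and 0 elsewhere. Eif4ebp3 had the same counts, and Eif4e1b, the oocyte form of eIF4E, had 1 count in SKO replicate 1. Eif4e3 had 1, 10 and 2 counts in wild type and 7, 2 and 9 in SKO. Eef1akmt3 had 3, 2 and 0 counts in wild type and 4, 6 and 12 in SKO; 67.3% of the exon length of Eif4ebp3 overlaps another gene.

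Per kilobase of exon, which allows levels to be compared between genes, the highest wild type levels were those of Eif1b (433 ± 23.7 CPM per kb), Eif3g (415 ± 15.3), Eif5a (401 ± 65.5) and Eef1a1 (349 ± 31.5). The first 3 lie within each other's spread. In SKO libraries the order began with Eif2s2 (507 ± 53.8 CPM per kb), Eif3g (457 ± 37.5) and Eif1b (419 ± 36.2), neighbours that again overlap in their spread. Eif2s2 had been seventh in wild type at 196 ± 15.2 CPM per kb, and Eif5a was ninth in SKO at 155 ± 37.8. Within eIF2B, the wild type level per kb ran from 14.9 ± 2.70 for the epsilon subunit gene Eif2b5 to 76.2 ± 10.7 for Eif2b1. Within eIF3 it ran from 3.41 ± 1.19 for Eif3j2 to that of Eif3g. Exon length here is the union over all annotated transcripts, so a gene with long alternative ends reads low.

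The members whose mRNAs are known to begin with a terminal oligopyrimidine (TOP) tract, through which mTORC1 controls their translation together with that of ribosomal protein mRNAs, had another split than the ribosomal protein genes. Of 10 such translation factor genes, 1 (Eef1b2) was higher and 5 (Eef1a1, Eef1g, Eef2, Eif3f and Eif3h) lower, and their median log2 fold change was −0.23. Of 83 tested ribosomal protein genes, 70 were higher and 1 lower, with a median of 0.80. Among the TOP factors 10% were higher and 50% lower, and among the ribosomal protein genes 84.3% and 1.2%. The background was 14.1% higher and 14.4% lower over all tested genes, and 21.9% and 22.6% among those with at least 5 CPM. After the GC and length correction the TOP factors had 1 higher and 2 lower (median −0.11) and the ribosomal proteins 75 higher and 1 lower (median 0.89), so the medians stayed apart. With library totals the medians were −0.49 and 0.54.

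Fold changes of the translation factors ran with the GC content of their transcripts. Across the 55 genes, Pearson's r was −0.56 and Spearman's rho −0.56, and across 13452 tested genes, which share the same 6 libraries, they were −0.31 and −0.35. Of the 17 translation factors under 45% GC, 5 were higher and 0 lower, where 26.5% of all such genes were higher and 5.57% lower. Of the 28 over 50% GC, 4 were higher and 13 lower, where 7.19% of all such genes were higher and 20.9% lower. Eif3c, Eif4ebp1, Eif1ad and Eif3k were the 4 that rose in the upper range. The part of GC content in these differences was not tested further.

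**Figure D3:**
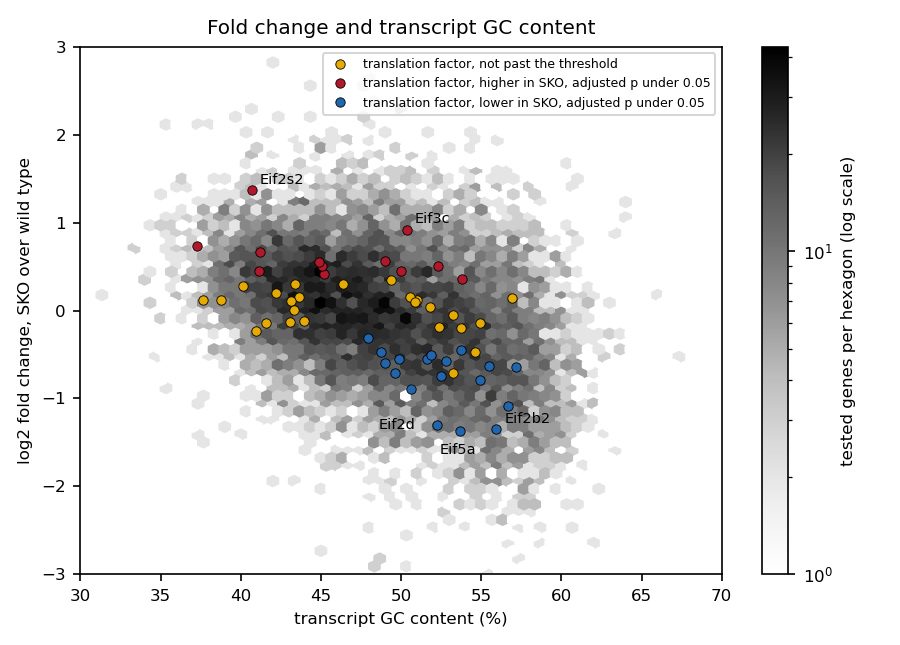
Log2 fold change (SKO over wild type) against transcript GC content (%), with 13452 tested genes as grey hexagons and the 55 translation factors as points coloured by call. The points slope downwards from Eif2s2 (40.7% GC, 1.37) to Eif2b2 (55.9% GC, −1.35), as the grey cloud does, with r = −0.56 and −0.31.

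**Figure D4:**
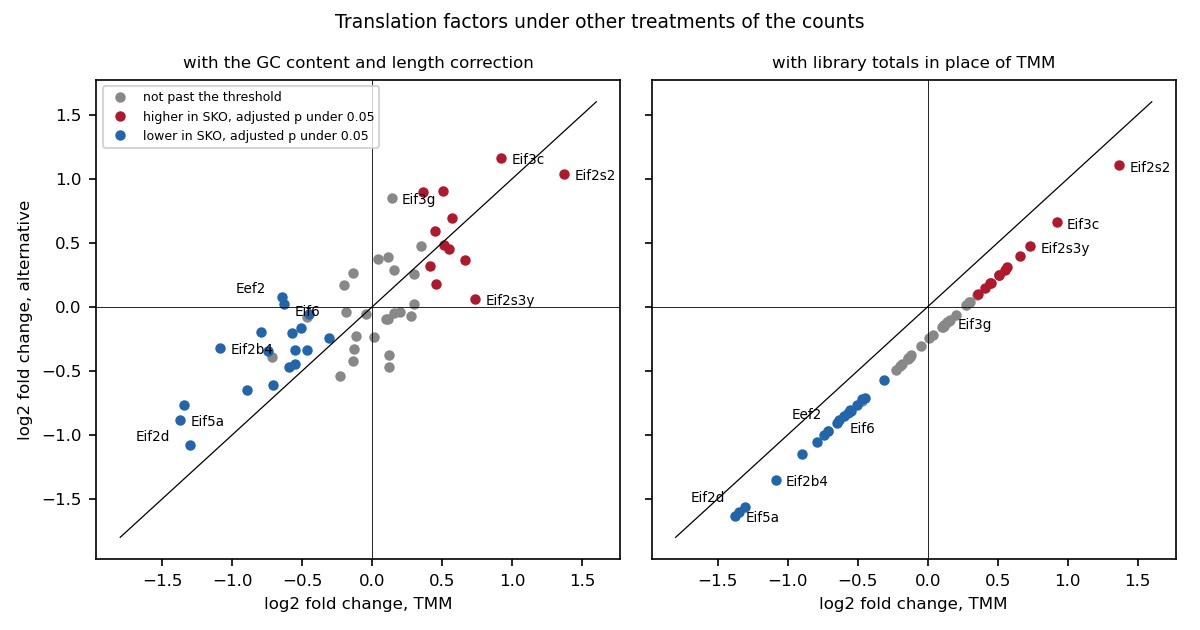
Log2 fold change of the 55 translation factors with TMM scaling (x axis) against the same with the GC and length correction (left) and with library totals (right), with the line of equality. Library totals shift all points down together, whereas the correction brings Eef2 and Eif6 to 0.07 and 0.02 and leaves Eif2s2 at 1.03 and Eif5a at −0.88.

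Ratios between paralogs within a library do not depend on scaling, and 8 pairs could be compared. The ratio of Eif5a to Eif5a2 fell by 1.51 log2 units, that of Eif2s3x to Eif2s3y by 0.86, that of Eif4g1 to Eif4g2 by 0.76 and that of Eif1 to Eif1b by 0.67, while that of Eif4ebp1 to Eif4ebp2 was 1.32 higher. In these 5 pairs the SKO and wild type libraries did not overlap, with a two-sided exact permutation p of 0.1, the smallest that 3 libraries against 3 allow, and an adjusted p of 0.16 over the 8 pairs. Without SKO replicate 3, in which Eif4ebp2 had 4 counts, the Eif4ebp1 to Eif4ebp2 difference was 0.80. No pair can pass a threshold of 0.05 in this design. The differences for Eif4a1 to Eif4a2 (−0.33), Eif4e to Eif4e2 (−0.29) and Eif4g1 to Eif4g3 (−0.26) were within the spread of the libraries (exact permutation p = 0.2, 0.2 and 0.6). The paralogs differ in GC content, with 53.7% for Eif5a and 38.8% for Eif5a2, and 54.6% for Eif4g1 and 43.4% for Eif4g2.

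**Figure D5:**
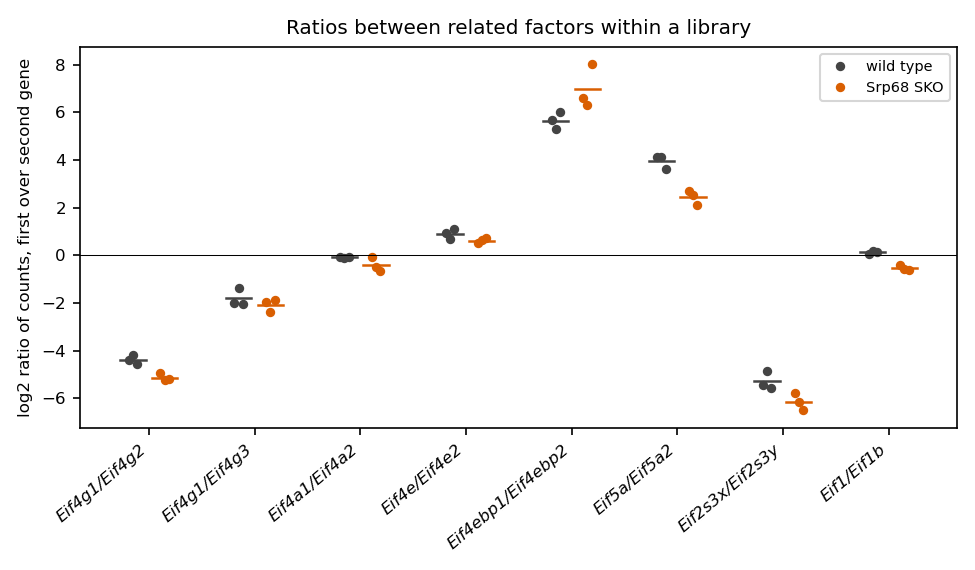
Log2 ratio of counts between the genes of 8 paralog pairs in each library (3 wild type, 3 SKO), with a line at each mean. The Eif5a to Eif5a2 ratio lies at 3.62 to 4.14 in wild type and 2.10 to 2.72 in SKO.

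Of 45 related genes that modify, assist or recycle these factors, 10 were higher, 7 lower and 28 did not pass (median log2 fold change 0.08). That is 22.2% higher and 15.6% lower, beside the background of 14.1% and 14.4%. With at least 5 CPM in 3 libraries, 27.5% of the 40 related genes kept were higher and 20% lower, beside a background of 21.9% and 22.6%. The helicase genes Ddx3x and Ddx3y, whose products help initiation on structured mRNAs, rose from 27.0 ± 2.04 to 67.4 ± 3.28 CPM (log2 fold change 1.32; adjusted p = 2.87e-05) and from 92.8 ± 10.0 to 180 ± 11.3 CPM (0.95; 6.1e-05). Paip2b, an inhibitor of the poly(A)-binding protein, rose from 80.2 ± 13.4 to 142 ± 5.23 CPM, the ribosome recycling factor gene Abce1 from 134 ± 14.7 to 206 ± 3.13 CPM, Larp4 from 169 ± 34.5 to 278 ± 44.1 CPM, and Pdcd4, an inhibitor of eIF4A, from 96.8 ± 7.91 to 140 ± 11.9 CPM. Eefsec, the elongation factor for selenocysteine, fell from 49.0 ± 8.76 to 22.0 ± 3.39 CPM (−1.15; 0.000516), and Larp1, which binds TOP mRNAs, from 37.2 ± 6.33 to 17.5 ± 3.86 CPM (−1.09; 0.00197). Dohh, Eef2kmt (34.8 ± 4.14 to 17.8 ± 3.40 CPM), Hbs1l (147 ± 29.5 to 95.2 ± 16.6 CPM) and Dph2 (8.45 ± 3.52 to 3.76 ± 0.489 CPM), the last a gene of diphthamide synthesis on eEF2, were also lower. Unlike Ddx3x and Ddx3y, D1Pas1 fell, from 52.1 ± 1.41 to 37.1 ± 6.68 CPM (−0.49, edgeR adjusted p = 0.0414). Under the GC and length correction 9 of the 45 were higher and 3 lower, and with library totals 5 higher and 15 lower. The count of lower genes was 4 without wild type replicate 1 or 2 or SKO replicate 2.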

How the data were processed

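Gene counts of 6 libraries were deposited by the authors as 1 table of 49584 Ensembl genes, without molecular identifiers, so count floors cover counting error alone. Per the submitters' processing notes, FastQC, Trim Galore 0.6.4, HISAT2 2.0.5 and GRCm38 (mm10) were used. The sources used here do not give the counting tool, its strand setting or its annotation. The table's columns write CKO where the labels write SKO. Symbols came from GENCODE vM21 (259 IDs unmatched). Genes kept by filterByExpr (13474) were fitted in R 4.3.3 with edgeR 4.0.16 (TMM, quasi-likelihood test, Benjamini-Hochberg adjustment over all tested genes, called under 0.05), after a check on simulated data. Alternatives used limma 3.58.1, DESeq2 1.42.0, other scalings and filters, each library left out, and loess trends (span 0.3) on GC content and exon length. Other genes sharing a near-identical stretch (95% identity over 100 bases) were searched, and 18 genes had such a match. The counts of the matching genes came to over 10% of the gene's own for 2 of them (Eif3j2 and Eef1akmt3). Eef1akmt3 matched 161 genes, only 2 of them pseudogenes, so a shared stretch need not mean a copy of the gene. Members and lists were chosen with earlier results of these data known. Values per library are given for up to 4 genes per role with the smallest p and for paralog pairs. Related genes are named by the 6 smallest p in each direction, with Dhps and D1Pas1 added. Paralog ratios used a pseudocount of 0.5 counts.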

Additional observations from a re-analysis of the deposited data

How the results depend on the processing

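None of the 30 calls turned in direction, except that Eif6 and Eef2, no longer called, stood at 0.024 and 0.075 with the GC and length correction. With library totals, the higher translation factors numbered 5, the related genes 5 higher and 15 lower all genes higher in SKO 1010 and all genes lower in SKO 3168, and the median of the translation factors was −0.31. Calls gained with library totals, beside those given above, were Eif1b (−0.31; adjusted p = 0.0396), Eif2a (−0.49; 0.00805), Eif4a2 (−0.41; 0.00466), Eif4h (−0.46; 0.0297) and Eef1d (−0.40; 0.0368). With the GC and length correction 3 related genes were lower. At an adjusted p under 0.01, 4 related genes were lower, and 1230 and 1142 of all genes were higher and lower. Leaving out 1 library at a time gave 10 to 12 higher and 13 to 18 lower translation factors, 7 to 12 higher and 4 to 7 lower related genes, 1361 to 1916 for all genes higher in SKO and 1373 to 1851 for all genes lower in SKO, and a median of the translation factors of −0.08 to 0.0093.

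Genes that were not called changed sign as follows. With library totals Eif1a stood at −0.061, Eif3a at −0.11, Eif3e at −0.14, Eif3g at −0.12, Eif3i at −0.22, Eif4b at −0.15, Eif4e2 at −0.11, Eif5 at −0.16, Eif5b at −0.25, Eif5a2 at −0.14 and Eef1akmt1 at −0.16. With the GC and length correction Eif1a stood at −0.044, Eif3a at −0.050, Eif3e at −0.47, Eif3j2 at −0.071, Eif4h at 0.17, Eif5 at −0.10, Eif5b at −0.24, Eif5a2 at −0.37, Eef1d at 0.27 and Eef1akmt1 at −0.093. Leaving out a library gave −0.0022 (without wild type replicate 1) to 0.26 for Eif4b and −0.26 to 0.0093 for Eif2s3x, above 0 without wild type replicate 2 or SKO replicate 3. It gave −0.012 to 0.090 for Eif3i and −0.025 to 0.046 for Eif5b, both below 0 without wild type replicate 2 or SKO replicate 1. Of the paralog ratios that did not separate the groups, Eif4g1 to Eif4g3 was −0.05 with wild type replicate 2 left out and −0.10 with SKO replicate 2 left out, Eif4a1 to Eif4a2 −0.50 and −0.20 with SKO replicate 1 or 3 left out, and Eif4e to Eif4e2 −0.19 without wild type replicate 3. The cause was not tested in any of these.

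Replicate numbers did not pair the libraries: deviations of same-numbered libraries correlated at 0.02, −0.05 and 0.04, and not every library correlated best with its own number. With the replicate number as a block, which added calls for Eif2b3 and Eif4g2, 14 translation factors were higher and 18 lower. Low counts limited Eif4ebp2, Eif2s3x and Eif3j2, whose intervals are wide, and the 5 untested genes.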
